A study of Mus musculus with 6 samples.

Results

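The Dlk1-Dio3 imprinted cluster is the long run of miRNA genes that lies between Dlk1 and Dio3 on mouse chromosome 12. Its members were chosen here by name: every probe mmu-miR-N, with any letter or arm, whose number N is 1 of 51 numbers known from the locus. These were 109 of the 1963 mouse miRNA probes on the array, and all 51 numbers had at least 1 probe. Lung RNA from 6 C57Bl6 mice was measured, 1 mouse per array, in a single dye (Cy3). The 3 control mice were wild-type animals given saline only (WT), and the 3 treated mice were wild-type animals given bleomycin at 1.5 U/kg into the trachea (WT-BLM). Bleomycin is an antitumour drug whose damage to lung tissue leads to fibrosis in mice. All lungs were taken at day 21. The mice of the study were 8 to 10 weeks old, and no transgene or deletion was carried by any group used here. Whole lung tissue was extracted, so fewer cells of a type and less RNA per cell cannot be told apart. The labels number the mice from 1 to 3 in each group and name no litter or array batch.

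Genes of an imprinted locus are read from only 1 of the parental chromosomes. Dlk1, Rtl1 and Dio3, which code for proteins, are read from the paternal chromosome, whereas the noncoding RNAs Meg3, Rian and Mirg and the miRNAs carried in that same long transcribed stretch are read from the maternal one. The miRNAs of the locus are known for high levels in the embryo, the placenta and the adult brain. A miRNA finds its target mRNAs mainly through its seed, the bases 2 to 8 from its 5′ end. The comparison addressed whether members of this cluster are measurable in adult mouse lung and whether their level differs after bleomycin.

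According to RefSeq (GRCm38.p6), 54 hairpin genes carry 49 of the 51 numbers, and 53 of them lie on chromosome 12, from Mir770 to Mir3072. The exception was Mir496b, on chromosome 19, so that miR-496b is a member by number and not by position. miR-544 and miR-666 were named on the array only. Between these ends the table lists 57 miRNA genes, of which 4 fall outside the 51 numbers (Mir3544, Mir432, Mir1188 and Mir453). By the table's intervals, 1 miRNA gene lies inside Meg3 (Mir770), 15 lie inside the span given for Rtl1, 3 inside Rian and 10 inside Mirg. Mature sequences of 105 of the 109 probes were in the RefSeq table under the same name, and all 105 were identical to the target sequence on the array.

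Detection was judged array by array: the mean intensity of the spots of a probe had to exceed by more than 3 SD the median of the empty spots of that array. The target sequences of the 3 members detected on at least 3 of the 6 arrays are shown 5′ to 3′ with the seed in capitals, together with miR-362-3p, the only detected miRNA outside the cluster that shares a seed with any of the 3 (with miR-329-3p).
miR-494-3p: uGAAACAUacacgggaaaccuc
miR-127-3p: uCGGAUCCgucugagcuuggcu
miR-329-3p: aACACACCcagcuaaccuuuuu
miR-362-3p: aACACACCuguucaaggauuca
The 5 members detected on a single array follow, because their calls are examined spot by spot later.
miR-337-3p: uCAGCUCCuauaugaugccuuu
miR-337-5p: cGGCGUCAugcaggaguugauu
miR-434-5p: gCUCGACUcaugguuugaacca
miR-154-3p: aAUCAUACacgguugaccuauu
miR-3072-5p: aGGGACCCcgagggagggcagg
The 109 members had 100 different seeds. A seed was shared by a pair of members in 9 cases, which covered 18 members, and 15 members shared their seed with a probe outside the cluster. The most alike of these pairs are shown because an array probe may not separate such sequences. The 18 bases of miR-299b-3p are the first 18 of the 22 bases of miR-299a-3p, and miR-376b-5p and miR-376c-5p differed by 1 base, G19U from the first to the second, counting from 1 at the 5′ end.
miR-299a-3p: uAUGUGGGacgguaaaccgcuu
miR-299b-3p: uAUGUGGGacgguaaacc
miR-376b-5p: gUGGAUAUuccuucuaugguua
miR-376c-5p: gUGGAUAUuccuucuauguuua
The GC content of the members had a median of 47.8% (range 22.7% to 77.3%), beside 52.2% over all 1963 probes, and the median length was 22 bases in both.

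Cluster miRNAs were mostly not detected in the lungs of either group. In all, 3 of the 109 members (2.75%) were detected on at least 3 of the 6 arrays, beside 275 of all 1963 probes (14.0%). Only miR-494-3p was detected on all 6 arrays. A further 5 members were detected on 1 array each, and 101 were detected on none. The numbers miR-297, miR-466, miR-467 and miR-669 are known from another large miRNA cluster, in the gene Sfmbt2. Of the 71 probes with these numbers, 18 (25.4%) were detected on at least 3 arrays. Those probes were chosen by number, and their positions were not checked. The mesenchymal and smooth muscle miRNAs miR-199, miR-214, miR-143 and miR-145, which come from short clusters elsewhere, had 8 of 10 probes detected. These shares were compared as counts without a test.

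The median signal of a cluster probe over the 6 mice was 5.13 intensity units above the empty spots (quartiles 3.26 to 9.87), beside 6.17 for all probes (quartiles 3.77 to 13.3). The 2 distributions lay close together at the dim end and parted at the bright end. Only 1 cluster probe had a median above 100 units and none had a median above 1000 units, whereas 188 and 74 of all 1963 probes did. Even taking the brightest of the 6 mice, 93 of the 109 members stayed under 50 units and 103 stayed under 100 units.

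**Figure D1:**
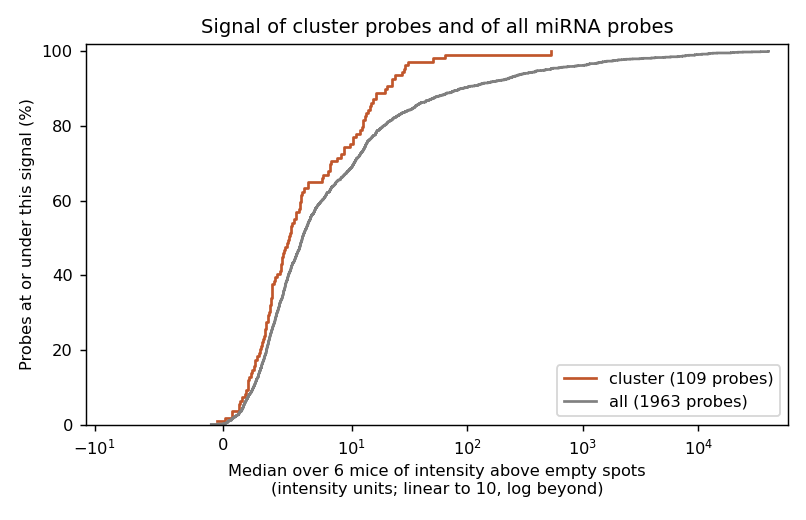
Cumulative share of probes (vertical axis, percent) by the median over 6 mice of intensity above the empty spots (horizontal axis, intensity units, linear to 10 and logarithmic beyond). The cluster curve (109 probes) ends at 1 probe above 100 units, while the curve of all 1963 probes runs on past 1000 units.

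The arrays differed in how dim a miRNA could be and still be detected. The limit lay 42.9, 54.4 and 178 units above the empty spots in WT mice 1 to 3, and 135.7, 45.1 and 24.0 units in WT-BLM mice 1 to 3. WT mouse 3 and WT-BLM mouse 1 thus had the highest limits, 1 in each group. The number of members detected was 4, 2 and 2 in WT mice 1 to 3 and 1, 5 and 4 in WT-BLM mice 1 to 3, and that of all probes was 327, 270 and 132 against 176, 348 and 365. The part of the limit in these counts was not tested. WT mouse 3 stood apart: the median signal of the 275 tested probes was 129 units above its empty spots and 224 to 282 units on the other 5 arrays. In that mouse 22 of the 109 members were brighter than the median empty spot, while 98 to 108 were on the other arrays.

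Along the locus, the first group (miR-770, miR-673, miR-493, miR-337, miR-540, miR-665 and miR-3070) had 0 of 15 probes detected on at least 3 arrays. The next group, miR-431, miR-433, miR-127, miR-434, miR-136 and miR-3071, had 1 of 12 (miR-127-3p). It holds miRNAs made antisense to Rtl1, such as miR-127, which is known to guide cleavage of the Rtl1 mRNA, while RefSeq places Mir3071 on the other strand from the rest of the group. The pair hosted by Rian (miR-341 and miR-370) had 0 of 4. The largest group, from miR-379 to miR-410 with miR-3072 at its end, had 2 of the 72 probes placed there (miR-329-3p and miR-494-3p, which are neighbouring genes). miR-882, which RefSeq places between Mir370 and Mir379, was detected on no array, nor were the 5 probes with no place on the locus (miR-496b, miR-544 and miR-666). By arm, 3 of 54 probes of 3p arms and 0 of 53 probes of 5p arms were detected on at least 3 arrays, and the other 2 probes name no arm. The shares by arm over all probes were not computed, so no preference for an arm is read from these counts. Of the locus miRNAs outside the 51 numbers, 6 probes were on the array and none was detected on 3 arrays. miR-453 was the one detected at all, on 1 array, at 60.5 units.

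**Figure D2:**
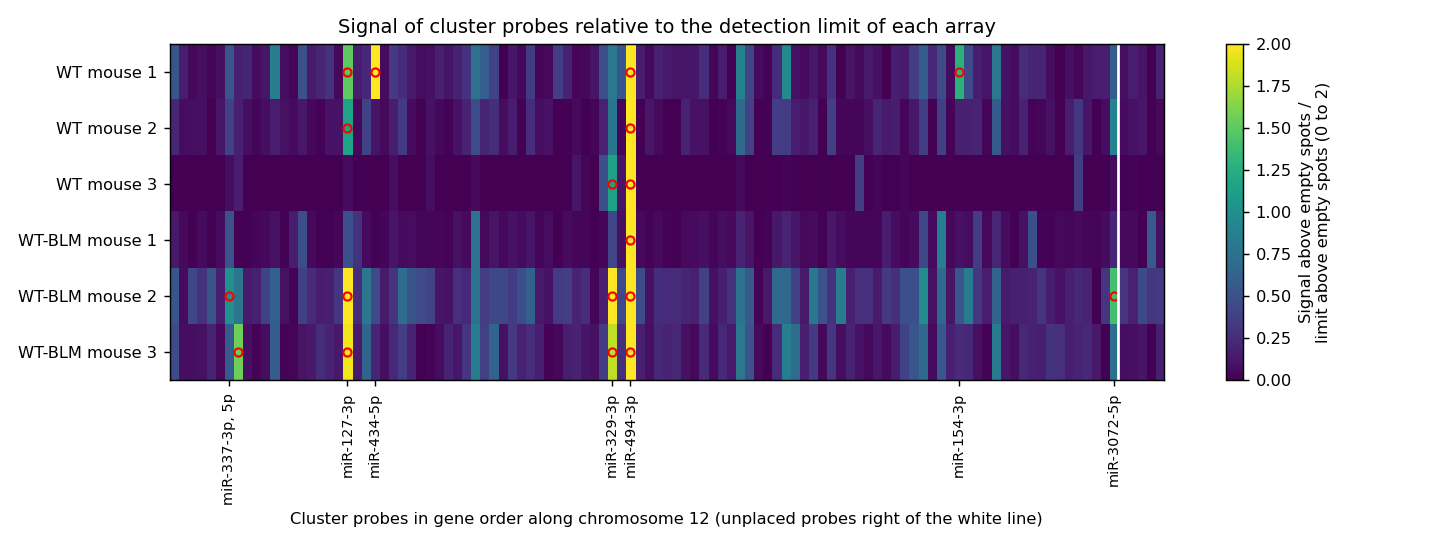
Each column is a cluster probe, 104 in gene order along chromosome 12 and 5 with no place there (miR-496b, miR-544 and miR-666) right of the white line, each row a mouse, and the colour the signal above the empty spots divided by the limit of that array (shown from 0 to 2). Red circles mark detection; miR-494-3p is circled in all 6 mice, and 101 of the 109 columns have no circle.

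miR-494-3p was the brightest member and the only one detected in every mouse by the criterion given above. Its signal above the empty spots was 1388, 956 and 384 units in WT mice 1 to 3 and 453, 521 and 532 units in WT-BLM mice 1 to 3. On the normalized log2 scale the values were 10.46, 9.59 and 9.20 in WT and 9.12, 8.86 and 9.35 in WT-BLM mice. WT mice 1 and 2 lay above all WT-BLM mice, whereas WT mouse 3 lay below WT-BLM mouse 3, so the groups overlapped. The means were 9.75 ± 0.64 (SD, n = 3) in WT and 9.11 ± 0.25 (SD, n = 3) in WT-BLM lungs. The log2 fold change was -0.64 (SE 0.35, 95% confidence interval -1.46 to 0.18), with an adjusted p of 1 by limma. An exact two-sided permutation test gave p = 0.2, where the smallest p that 3 against 3 mice allow is 0.1. The difference did not pass the test.

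The size of this difference depended on single WT mice. Without WT mouse 1 the log2 fold change of miR-494-3p was -0.29, and without WT mouse 3 it was -0.95, with an unadjusted limma p of 0.018 and no call after adjustment. In the authors' own normalized intensities, on the log2 scale after adding 50, the 3 WT mice were at 10.30, 9.48 and 9.09 and the 3 WT-BLM mice at 8.89, 8.60 and 9.04, so that the groups did not overlap there. They did not overlap under 75th percentile scaling (WT 9.42 to 10.83, WT-BLM 8.53 to 9.38) or cyclic loess (WT 9.21 to 10.33, WT-BLM 8.80 to 9.15) either, and they did without normalization, with a normexp offset of 16 and with the empty spots subtracted. The means of the authors' intensities before the log were 790 ± 374 (SD, n = 3) and 413 ± 70.9 (SD, n = 3), and the exact two-sided permutation p was 0.1, the smallest possible. In those intensities the closest pair, WT mouse 3 and WT-BLM mouse 3, was separated by much less than the spread within the WT group. The 2 spots of this probe also differed within the WT mice, with 1681 and 1095 units in WT mouse 1 and 1287 and 625 units in WT mouse 2, which are gaps of 0.59 and 0.98 on the log2 scale after background correction. In WT mouse 3 the gap was 0.29, and in WT-BLM mice 1 to 3 it was 0.23, 0.22 and 0.013.

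Markers of striated muscle varied among the same mice. The summed signal of 6 muscle and heart miRNAs (miR-1a-3p, miR-133a-3p, miR-133b-3p, miR-206-3p, miR-208a-3p and miR-499-5p) was 3413, 16905 and 767 units in WT mice 1 to 3 and 1945, 1851 and 1254 units in WT-BLM mice 1 to 3, with 4 of the 6 detected on at least 3 arrays. WT mice 1 and 2, which were highest in miR-494-3p, were also highest in this sum, in the opposite order. The part of muscle RNA in the miR-494-3p values was not tested. The lung list (miR-126a, miR-30a, miR-200b, miR-200c, miR-34b, miR-34c and miR-449a) had 8 of 8 probes detected. Of the brain list 1 of 6 was detected on at least 3 arrays (miR-128-3p), with sums of 152 to 317 units in WT and 215 to 327 units in WT-BLM mice. miR-124-3p was detected on 1 array, and the other 4 probes (both arms of miR-9, miR-137-3p and miR-219a-5p) on none.

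miR-127-3p, which is fully complementary to the Rtl1 mRNA because it is made from the opposite strand, was detected in 2 WT and 2 WT-BLM mice. Its signal was 64.6, 63.0 and 9.78 units in WT mice 1 to 3 and 66.2, 110 and 47.1 units in WT-BLM mice 1 to 3. The normalized log2 values were 6.92, 7.00 and 6.34 against 6.94, 7.16 and 6.94. Only WT mouse 3, the dim array, stood clearly below the rest, and the groups overlapped. The log2 fold change was 0.26 (SE 0.25, 95% confidence interval -0.33 to 0.85; limma adjusted p = 1; exact permutation p = 0.4). Without WT mouse 3 it was 0.054, and under 75th percentile scaling it turned to -0.13. The highest value, that of WT-BLM mouse 2, came from spots at 159 and 61.0 units, and the brightness within the brighter spot varied by 45.6% (SD over the spot).

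miR-329-3p, whose gene stands next to that of miR-494, was detected in 1 WT and 2 WT-BLM mice. Its signal was 34.1, 42.4 and 203 units in WT mice 1 to 3 and 57.1, 164 and 43.4 units in WT-BLM mice 1 to 3. The normalized log2 values were 6.56, 6.79 and 8.53 in WT and 6.83, 7.50 and 6.88 in WT-BLM mice. One mouse in each group was high and the others were alike, so that the groups overlapped. The log2 fold change was -0.22 (SE 0.52, 95% confidence interval -1.44 to 0.99; limma adjusted p = 1; exact permutation p = 1). It turned to 0.43 without WT mouse 3. The spots of WT mouse 3 were at 180 and 227 units, whereas those of WT-BLM mouse 2 were at 256 and 71.9 units. miR-362-3p, which has the same seed as miR-329-3p and is made from another locus, had log2 values of 6.65, 7.29 and 6.86 in WT and 7.12, 7.19 and 7.17 in WT-BLM mice. Its log2 fold change was 0.23 (SE 0.24, limma adjusted p = 1), and it was not high in WT mouse 3.

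**Figure D3:**
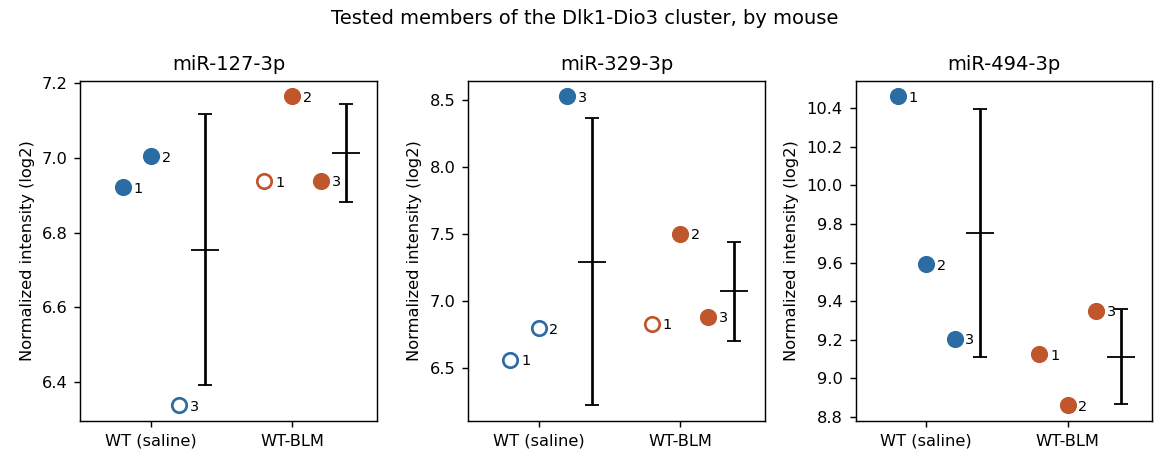
Normalized log2 intensity of the 3 tested members in each mouse (numbers beside the points), with the mean and SD of each group (n = 3) as black bars; the vertical scales differ. Filled points were detected on that array and open points were not; in all 3 panels the WT and WT-BLM points overlap.

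None of the 3 tested members was called. At an adjusted p under 0.05 limma called 0 of all 275 probes tested (0%), and 5 of the 275 had an unadjusted p under 0.05, none of them a cluster member. In 13 of the 275 probes (4.73%) the 3 WT and the 3 WT-BLM values did not overlap, and 0 of the 3 members were among them. Of the 3 members 1 was higher and 2 were lower in WT-BLM lungs, with a median log2 fold change of -0.22, beside 0.044 over all 275 probes (155 higher and 120 lower). When arrays were scaled to their 75th percentile instead, the median of all tested probes moved to -0.22 and 59 of the 275 were higher. Relative to that shift the log2 differences of miR-494-3p, miR-127-3p and miR-329-3p were -0.69, 0.095 and -0.13, beside -0.69, 0.22 and -0.27 relative to the median in the reported analysis. Relative to the median of all probes tested, miR-494-3p differed by -0.94 to -0.35 and miR-127-3p by 0.062 to 0.33 over the settings. These settings reuse the same mice, and several leave the fold change as it was. Their shared sign therefore adds no independent evidence. Without that reference miR-127-3p was at -0.13 under 75th percentile scaling. Neither difference passed the test.

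**Figure D4:**
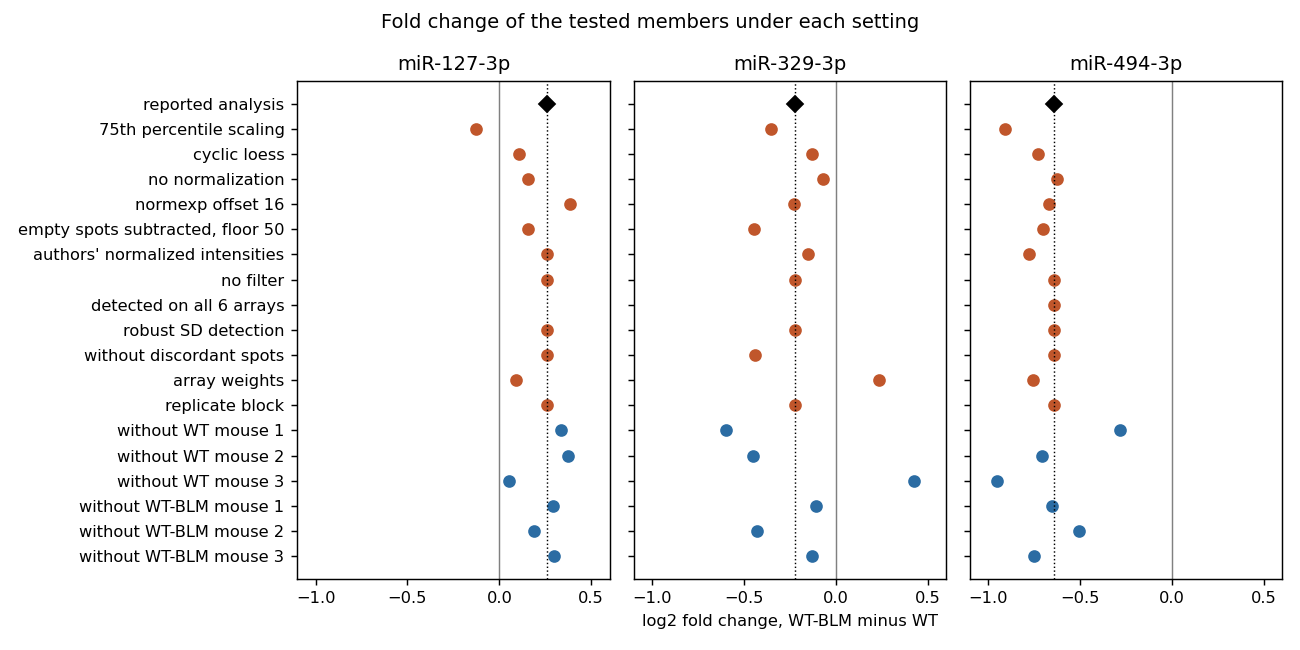
log2 fold change (WT-BLM minus WT) of the 3 tested members in the reported analysis (diamond and dotted line), under other settings (orange) and without each mouse (blue); the grey line marks 0. miR-494-3p lies between -0.95 and -0.29 throughout, whereas miR-329-3p runs from -0.60 to 0.43.

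The 5 members detected on a single array had no group difference that could be measured, since their WT and WT-BLM values overlapped in both the computed and the authors' intensities. In 3 of the 5 the call rested on 1 spot of the pair, and that spot was uneven. miR-434-5p, another miRNA antisense to Rtl1, had spots at 198.9 and 5.49 units in WT mouse 1, and the brightness within the first varied by 109%. miR-154-3p had spots at 93.1 and 17.1 units in the same mouse, with 65.6% variation within the first. miR-337-5p had spots at 2.26 and 72.9 units in WT-BLM mouse 3, with 104% variation within the second. By contrast, both spots were above the limit of 45.1 units in WT-BLM mouse 2 for miR-3072-5p (81.2 and 46.1 units), while miR-337-3p had 1 of 2 above it (53.9 and 37.4 units). A similar uneven spot of miR-337-3p in WT-BLM mouse 1, at 125 units beside 12.8, did not bring its mean past the higher limit of that array.

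A lower limit was also applied, with the SD of the empty spots replaced by a robust SD (from their median absolute deviation), which a few bright empty spots do not widen. That limit lay 6.39 to 20.5 units above the empty spots on 5 arrays and 56.7 units in WT mouse 3. Under it 23 of the 109 members (21.1%) were detected on at least 3 arrays, beside 570 of all 1963 probes (29.0%). Of the probes numbered miR-297, miR-466, miR-467 and miR-669, 46 of 71 (64.8%) were detected. The mesenchymal and smooth muscle probes had 10 of 10 detected. The 23 members comprised 3 of the 15 probes of the first group, 3 of the 12 from miR-431 to miR-136, 0 of 4 in Rian and 17 of the 72 placed from miR-379 to miR-410. By arm, 14 of the 54 3p probes and 9 of the 53 5p probes were among them. On all 6 arrays 2 members passed this limit, miR-494-3p and miR-329-3p. Members detected per mouse numbered 26, 25 and 5 in WT mice 1 to 3 and 27, 31 and 30 in WT-BLM mice 1 to 3. The counts of all probes were 703, 598 and 215 against 676, 748 and 712. WT mouse 3 thus had the lowest count under this limit, among members and among all probes.

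Among these 23 members 15 were higher and 8 were lower in WT-BLM lungs, with a median log2 fold change of 0.018, beside 0.024 over all 570 probes (328 higher and 242 lower). The groups did not overlap in 0 of the 23 members, beside 40 of the 570 probes (7.02%), and limma called 0 of the 570. The fold changes ran from -0.64 (miR-494-3p) to 0.36 (miR-485-3p), and most of the 23 lay near 0. miR-376c-3p, of a family known for A-to-I editing in brain, had log2 values of 6.62, 6.73 and 6.38 in WT and 6.48, 6.42 and 6.51 in WT-BLM mice. miR-379-5p, which opens the largest group, had 6.52, 6.56 and 6.42 in WT and 7.18, 6.41 and 6.54 in WT-BLM mice. The 1 high value of miR-379-5p, in WT-BLM mouse 1, was 101 units above the empty spots, and in the authors' intensities that mouse was at 20, level with the others (14 to 23). miR-485-3p had the same pattern, with 116 units in WT-BLM mouse 1 and an authors' intensity of 14. miR-758-5p was high in WT mouse 3 alone, at 86.8 units, where the authors' intensity was 0. miR-668-3p had log2 values of 6.42, 6.47 and 6.06 in WT and 6.85, 6.58 and 6.47 in WT-BLM mice, with a log2 fold change of 0.31 (SE 0.18, limma adjusted p = 1). Its highest value was again in WT-BLM mouse 1, at 58.9 units, and there the authors' intensity was also highest, at 68 beside 0 to 26 in the other mice. These 5 members were chosen after their values were seen.

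**Figure D5:**
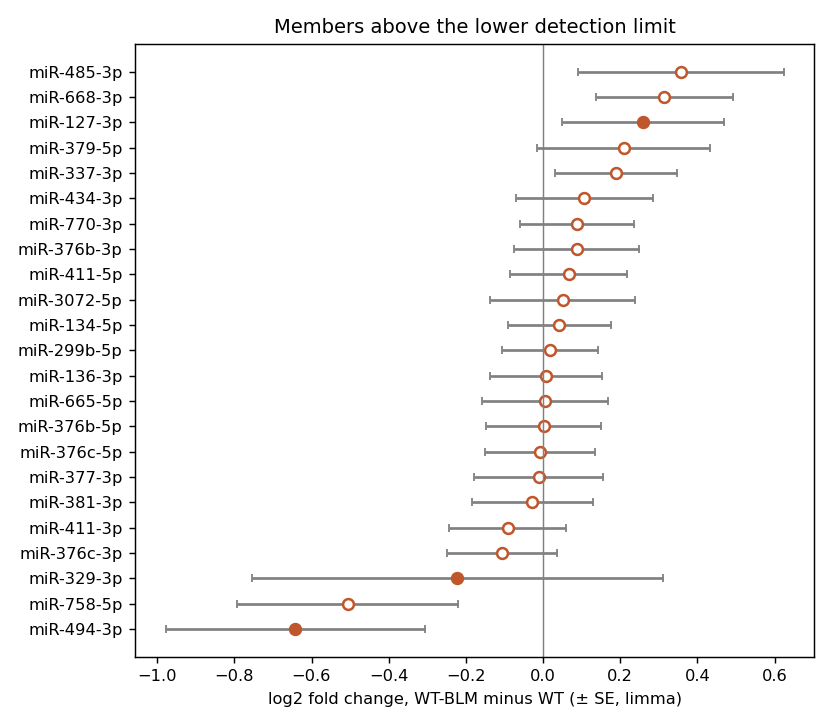
log2 fold change (WT-BLM minus WT) with its standard error from limma for the 23 members above the lower limit on at least 3 arrays, in order of size. Filled points are the 3 members detected under the stricter limit; most of the others sit within 0.2 of 0, and none of the 23 was called.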

How the data were processed

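Per the labels, total RNA was tailed, tagged and hybridised to microfluidic arrays by a service provider. The authors deposited 2 kinds of linear intensity: the median brightness of each of 5022 spots per array, and a table of intensities they had background-subtracted and normalized (1 value per probe, method not given in the sources used here). The 3926 spots of mouse miRNAs (2 for each of 1963 probes) were background-corrected with the 800 empty and all other spots (normexp, offset 50), quantile normalized on the log2 scale and averaged by probe. Probes detected on at least 3 of 6 arrays were compared with limma 3.58.1 in R 4.3.3 (lmFit and eBayes, Benjamini-Hochberg adjustment over all 275), and single values with an exact permutation test. The script was tested on simulated data. The authors' table was used as an alternative. The study's methods name a paired t-test, also tried. With 3 arrays a group, their number limits the precision. The labels name 6 separate mice. Every member detected on at least 3 arrays is named with its values, and those detected on fewer are named. The members, lists and settings were chosen with earlier results of these data known. Sequences came from the array files and were matched to RefSeq (GRCm38.p6); the files name no genome build.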

Additional observations from a re-analysis of the deposited data

How the results depend on the processing

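No cluster member and no probe was called under any of the 20 alternatives to the test, and the methods' paired t-test found 9 of 275 probes at an unadjusted p under 0.05 (7 without pairing), none a member and none after Benjamini-Hochberg adjustment. The fold change of miR-494-3p kept its sign in 18 of 18 alternatives (-0.95 to -0.29). These reuse the same mice, and the filters and the use of mouse number as a block left it at -0.64. Its unadjusted limma p was 0.048 under 75th percentile scaling, 0.049 under cyclic loess and 0.033 with array weights. That p was 0.16 without normalization and ran from 0.018 to 0.36 as mice were left out. The number of members detected was 1 when all 6 arrays were required and 23 with the robust SD, and 2 to 3 when a mouse was left out. The median log2 fold change of the members became 0.0034 with no filter, 0.018 with the robust SD and 0.092 with array weights, and ran from -0.45 to 0.054 as mice were left out. miR-127-3p turned to -0.13 under 75th percentile scaling. miR-329-3p turned to 0.23 with array weights, which gave WT mouse 3 a weight of 0.237 and the others 1.06 to 1.70, and ran from -0.60 to 0.43 as mice were left out. The cause was not tested, other than that filters and omissions change which probes or mice enter. With mouse number as a replicate block, 0 members were called and the median stayed at -0.22. Same-numbered mice correlated at 0.16, 0.028 and 0.073, which cannot show whether they shared a litter or a batch. The files name no slide or scan, so a block by slide or scan was not run. Most members lay under the detection limits, which bound what could be seen in both groups.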
